A study of Mus musculus with 9 samples.

Results

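Liver RNA of ligated mice given ligustilide was compared with that of sham-operated mice, gene by gene, to see which genes stood away from sham and which lay at the sham level. The comparison used 6 of the 9 libraries of the series, 3 labelled BDL+LIG and 3 labelled sham, and all 9939 of the 21470 listed genes that reached at least 1 FPKM in at least 3 of these 6 libraries. All libraries were made from mouse liver. The sham group had no ligation, the BDL group had its bile duct ligated, and the BDL+LIG group had the ligation and ligustilide (LIG). Ligustilide is a phthalide found in the roots of Angelica and Ligusticum plants. The series text gives its dose as 10 mg/kg while the sample titles carry the number 20, so the dose is not settled. The sources used here give no strain, age, sex or days between ligation and sampling. Sham mice that received ligustilide are not analysed here, so the ligation and the compound cannot be told apart in the difference between BDL+LIG and sham. No label says that each library is a separate mouse, so the p-values take in no more than the variation from library to library, which may be technical.

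Bile duct ligation closes the common bile duct, and bile acids then build up in liver and blood. As background, hepatocytes take up bile acids from the blood through carriers on the sinusoidal side, make new ones from cholesterol through the enzymes CYP7A1 and CYP8B1, and pump them into the bile canaliculi. In obstructed livers bile duct epithelium multiplies, stellate cells turn into myofibroblasts that deposit collagen, and macrophages and neutrophils enter the tissue.

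Levels are given in FPKM as the authors deposited them, that is, fragments set against the length of the transcript and the size of the library. A difference is the mean log2(FPKM + 1) of BDL+LIG minus that of sham, with its standard error from limma after the sign ±. It understates the change of genes near 1 FPKM. A gene under 1 FPKM in all 3 libraries of 1 group was tested only where all 3 libraries of the other reached 1 FPKM. The direction of such a gene was thereby set by the filter, so list counts that include such genes are in part set by it too. A gene was called where limma's adjusted p (Benjamini-Hochberg over the 9939 genes) was under 0.05, and the words "rose" and "fell" are kept for called genes. A gene was placed at the sham level only where the 95% interval of its difference lay wholly within 1.5-fold of sham in both directions, 0.58 on the log2 scale. Genes that met neither condition are termed undetermined. Genes named in brackets directly after a count of 5 or fewer were chosen after their values were seen.

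The libraries held 30893098 to 37381734 recovered fragments, a 1.21-fold range. Sham library 1 stood apart from the other sham libraries, at 34.4 on the second principal component against -6.2 and -12.5. The SD of the median gene was 0.247 among sham libraries, 0.096 among BDL and 0.146 among BDL+LIG libraries (log2 scale). The summed FPKM was 539095 to 632751 in sham and 489892 to 505514 in BDL+LIG, and mitochondrially encoded transcripts took 10.57 to 16.83% of it in sham and 5.86 to 8.58% in BDL+LIG. Over all tested genes the median difference was 0.34 on the deposited scale and -0.03 after median-of-ratios scaling, which sets the typical gene of every library equal. Counts after scaling therefore stand beside most groups below. Differences between BDL+LIG and BDL are given on the deposited scale only, where 10.7% of tested genes were called higher and 1.88% lower. The part of sham library 1, of the mitochondrial share and of the scale in single results was not tested beyond the values given.

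**Figure D1:**
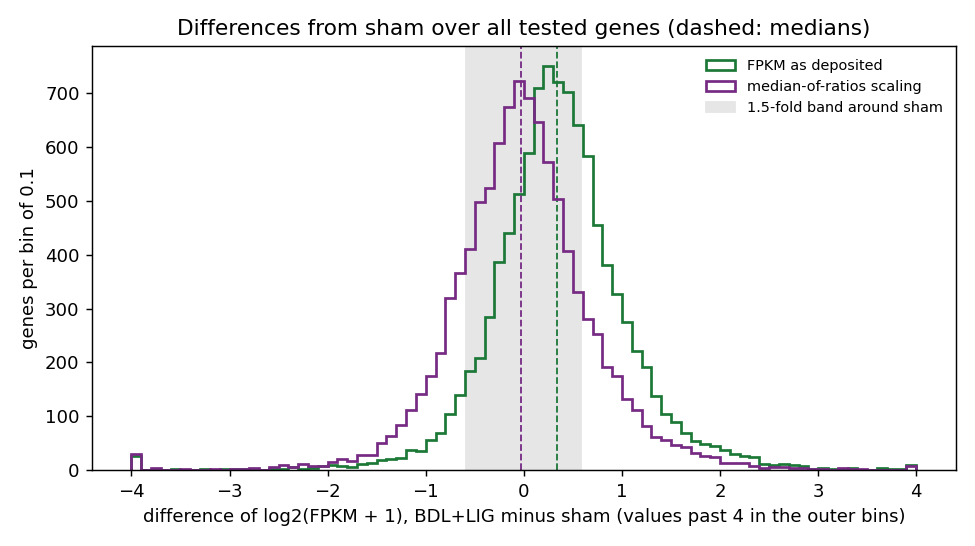
Number of genes (y axis, bins of 0.1) by the difference of log2(FPKM + 1) between BDL+LIG and sham (x axis) for all 9939 tested genes, as deposited (green) and after median-of-ratios scaling (purple). The dashed medians lie at 0.34 and -0.03, and the grey band marks 1.5-fold around sham.

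On the deposited scale 5250 of 9939 genes (52.8%) were called, 4349 of them higher (43.8%) and 901 lower (9.07%) in BDL+LIG than in sham. A difference of at least 1 on the log2 scale was met by 1685 called genes (17%), 1439 higher (14.5%) and 246 lower (2.48%). After median-of-ratios scaling 2336 genes were called higher (23.5%) and 2431 lower (24.5%). The 2336 genes called higher after scaling were also called higher as deposited, and the 901 genes called lower as deposited were also called lower after scaling. At the sham level lay 2418 genes (24.3%) as deposited and 3253 (32.7%) after scaling, and only 859 were at the sham level on both scales. A further 2329 genes (23.4%) were undetermined. Counts within a gene list are to be read against these shares, and a count near them is no result about the list. The lists were chosen with earlier results of these data known, so a count far from the shares only describes these libraries. The 3 BDL+LIG libraries lay wholly above the 3 sham libraries for 45.6% of the genes and wholly below for 9.82%.

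Among the 12 largest rises those of Lcn2, Sprr1a and Cdkn1a are given library by library. Lcn2, the gene of the iron-siderophore binding protein lipocalin-2, was at 22.8, 104 and 45.4 FPKM in sham libraries 1 to 3 and at 3068, 1386 and 4386 in BDL+LIG libraries 1 to 3. Every BDL+LIG library stood more than 10 times above the highest sham library, and the difference was 5.77 ± 0.51 (limma adjusted p = 1.91e-05). Sprr1a, a small proline-rich protein of the cornified envelope, was at 0.105, 0 and 0 FPKM in sham and at 11.6, 30.6 and 45.0 in BDL+LIG (difference 4.67 ± 0.37, adjusted p = 9.75e-06). Cdkn1a, the gene of the cyclin-dependent kinase inhibitor p21, was at 0.311, 0.125 and 0.549 FPKM in sham and at 22.2, 30.3 and 23.4 in BDL+LIG. Its groups were far apart and even within themselves (difference 4.31 ± 0.17, adjusted p = 4e-07).

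A further 8 of the 12 largest rises were those of Ly6d (5.18 ± 0.53), the MHC-region transcript D17H6S56E-5 (4.83 ± 0.24), Mfge8 (4.36 ± 0.19), a bridge between dying cells and phagocytes, and Cd14 (4.32 ± 0.29), a co-receptor for bacterial lipopolysaccharide. Nid1 (4.02 ± 0.18) encodes the basement membrane protein nidogen-1, S100a11 (3.87 ± 0.23) a calcium-binding protein, Ccl2 (3.86 ± 0.23) a chemokine that attracts monocytes, and Igfbp1 (3.80 ± 0.44) a binding protein of insulin-like growth factors. After median-of-ratios scaling these 11 differences ran from 3.34 for Igfbp1 to 5.30 for Lcn2, and all 11 stayed called.

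Promoters of 8 of these 11 genes were found in the RefSeq table (build GRCm38.p6, 250 bases before to 50 after the transcription start). Entries for Ly6d, Cd14 and Ccl2 were missing. The promoters of Lcn2 (chr2:32387690-32387989, minus strand) and Sprr1a (chr3:92485832-92486131, minus strand) are shown because these genes are among the largest rises and together hold matches to 3 of the 5 motifs searched. The promoter of each gene was taken from its first entry. Capitals mark the matches, read 5′ to 3′ in the direction of transcription.
Lcn2: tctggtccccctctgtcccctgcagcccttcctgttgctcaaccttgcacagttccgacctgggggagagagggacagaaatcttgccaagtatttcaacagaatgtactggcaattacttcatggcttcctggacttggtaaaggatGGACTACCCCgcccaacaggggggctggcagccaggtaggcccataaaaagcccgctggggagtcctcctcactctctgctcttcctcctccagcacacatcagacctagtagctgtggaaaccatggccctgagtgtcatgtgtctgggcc
Sprr1a: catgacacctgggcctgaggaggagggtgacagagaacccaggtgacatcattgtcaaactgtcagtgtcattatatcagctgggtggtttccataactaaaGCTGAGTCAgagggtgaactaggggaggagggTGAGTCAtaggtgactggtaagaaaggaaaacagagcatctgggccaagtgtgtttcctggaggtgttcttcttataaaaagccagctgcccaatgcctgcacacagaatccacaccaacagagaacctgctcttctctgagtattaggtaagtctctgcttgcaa
The Lcn2 window holds 1 match to the NF-kB-like pattern (GGG and CC with 5 bases between them), on the reverse strand, starting at -102 from the transcription start. The Sprr1a window holds the AP-1 pattern TGANTCA at -146 and at -116, the first of which overlaps a match on the reverse strand to the antioxidant response element pattern TGACNNNGC at -148. On both strands, the NF-kB-like pattern was in 6 of the 8 promoters of risen genes against 50.8% of all 32851 promoters in the table, AP-1 in 2 of 8 against 7.81%, and the antioxidant pattern in 1 of 8 against 12.4%. The E-box CACGTG was in 1 of 8 against 7.15% and the STAT pattern TTCNNNGAA in 0 of 8 against 8.3%. A match is a description of the letters, not a bound site.

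**Figure D2:**
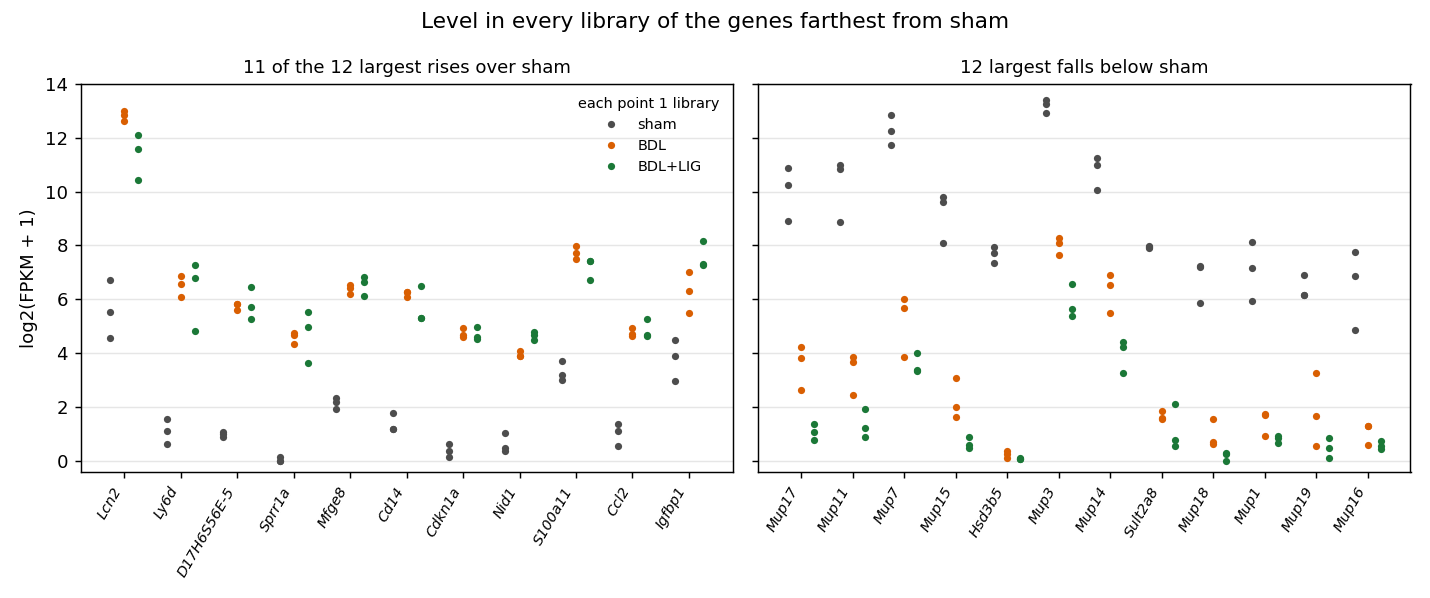
Level of 11 of the 12 genes with the largest rises (left) and of the 12 with the largest falls (right) as log2(FPKM + 1) on the y axis, 1 point per library, for sham (grey), BDL (orange) and BDL+LIG (green). No BDL+LIG point reaches the range of the sham points for any of these 23 genes, and Ly6d shows the widest spread among BDL+LIG libraries of the risen genes plotted.

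Among the 12 largest falls 10 were major urinary protein genes, which encode small carriers of pheromones that male mouse liver secretes in bulk. Mup7 was at 3346, 7305 and 4887 FPKM in sham and at 9.28, 9.54 and 15.3 in BDL+LIG, with BDL at 13.5, 50 and 63.8. Mup17 was at 478, 1889.6 and 1207 FPKM in sham and at 0.729, 1.11 and 1.59 in BDL+LIG, with BDL at 5.25, 13.2 and 18.0. Both genes were lower in every BDL+LIG library than in any sham library, with differences of -8.67 ± 0.49 and -8.93 ± 0.49 (adjusted p = 1.96e-06 and 1.75e-06). The other Mup genes of the 12 were Mup11 (-8.86 ± 0.55), Mup15 (-8.51 ± 0.44), Mup3 (-7.33 ± 0.29), Mup14 (-6.80 ± 0.42), Mup18 (-6.58 ± 0.36), Mup1 (-6.24 ± 0.44), Mup19 (-5.91 ± 0.54) and Mup16 (-5.91 ± 0.56). The members are nearly identical in sequence, so how reads were split between them is uncertain. The remaining falls were those of Hsd3b5 (-7.58 ± 0.16), a male-specific keto-steroid reductase, and Sult2a8 (-6.80 ± 0.32), a sulfotransferase of bile acids. Hsd3b5 was at 161, 211 and 243 FPKM in sham and at 0.0622, 0.0789 and 0.0471 in BDL+LIG. Sult2a8 was at 245, 252 and 241 FPKM in sham and at 0.475, 3.30 and 0.709 in BDL+LIG. Neither gene's groups overlapped.

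The windows of Mup7 (chr4:60070426-60070725, minus strand) and Mup17 (chr4:61595783-61596082, minus strand), from the same RefSeq table and build, show how alike these fallen genes are. Capitals mark the longest run of bases that both windows share, 66 bases, which begins at -96 in Mup7 and at -225 in Mup17.
Mup7: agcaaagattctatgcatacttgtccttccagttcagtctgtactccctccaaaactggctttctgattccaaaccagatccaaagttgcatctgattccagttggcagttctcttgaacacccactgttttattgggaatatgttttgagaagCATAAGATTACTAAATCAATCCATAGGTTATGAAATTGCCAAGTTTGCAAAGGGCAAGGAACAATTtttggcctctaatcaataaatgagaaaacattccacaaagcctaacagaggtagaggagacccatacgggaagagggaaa
Mup17: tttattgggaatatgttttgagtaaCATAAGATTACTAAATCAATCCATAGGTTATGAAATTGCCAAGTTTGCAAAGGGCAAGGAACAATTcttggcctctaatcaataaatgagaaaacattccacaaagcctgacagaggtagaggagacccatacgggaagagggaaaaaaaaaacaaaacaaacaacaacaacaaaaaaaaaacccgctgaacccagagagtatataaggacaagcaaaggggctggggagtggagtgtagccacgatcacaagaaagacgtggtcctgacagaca
That run was present in 7 of the 8 Mup windows found. Over the 28 pairs of windows the longest shared run was 20 to 275 bases (median 72.0). Entries for Mup1 and Mup16 were missing. None of the 5 motif patterns was found in the 10 windows of fallen genes, which says only that these letters are not in these windows. Cdkn1a and Sult2a8 have a second entry each, which holds NF-kB-like and antioxidant matches for Cdkn1a and an AP-1 match for Sult2a8, so these counts depend on the entry taken.

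Genes of the fibrous matrix stood above sham together. Of 15 tested collagens and related matrix genes all 15 rose (43.8% of all tested genes did), 14 of them at least by 1 on the log2 scale, with a median difference of 1.54 against 0.34 over all genes, and 14 stayed called after scaling (median 1.34). Col1a1, the main chain of type I collagen, was at 2.42, 0.310 and 0.986 FPKM in sham and at 11.3, 22.8 and 15.4 in BDL+LIG (difference 3.03 ± 0.33, adjusted p = 6.03e-05). Col3a1, type III collagen, was at 5.99, 1.38 and 3.65 FPKM in sham and at 21.1, 54.6 and 35.2 in BDL+LIG (3.06 ± 0.39, adjusted p = 0.000153). For both genes the lowest BDL+LIG library was above the highest sham library, sham library 1 was the highest of its group and BDL+LIG library 2 the highest of all. Lum (2.30 ± 0.23) and Bgn (2.24 ± 0.28), 2 small proteoglycans that bind collagen fibrils, and Col1a2 (2.56 ± 0.33) were the other members with the smallest p.

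Basement membrane genes rose for 9 of 11 tested members (median 1.04, 7 after scaling). Col4a1 and Col4a2, the chains of type IV collagen, had differences of 2.85 ± 0.15 and 2.00 ± 0.17, and Sparc, a matrix glycoprotein, of 2.69 ± 0.25. Both type IV chains were also higher in BDL+LIG than in BDL, by 0.68 ± 0.15 and 0.73 ± 0.17 (limma adjusted p = 0.0236 and 0.0273, where 10.7% of genes were called higher and 1.88% lower). Of 10 genes for collagen assembly and crosslinking 8 rose, 5 of them after scaling. These included Tgm2, a transglutaminase (2.13 ± 0.18), and Serpinh1, the collagen chaperone HSP47 (1.91 ± 0.32). P4hb, a subunit of the collagen prolyl hydroxylase that also folds proteins in the endoplasmic reticulum, was at the sham level.

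Of 14 genes for matrix proteases and their inhibitors 13 rose on both scales (median 1.59 as deposited). Timp1, an inhibitor of matrix metalloproteinases, was at 0.155, 0.127 and 0.161 FPKM in sham and at 4.94, 8.89 and 12.4 in BDL+LIG (3.01 ± 0.25, adjusted p = 1.24e-05). All sham libraries lay far below the lowest BDL+LIG library. Plaur, the urokinase receptor (2.18 ± 0.13), Mmp14, a membrane-bound collagenase (1.68 ± 0.11), and Plat, tissue plasminogen activator (1.33 ± 0.13), rose as well. Mmp19 was at the sham level (0.09 ± 0.16, 95% interval -0.26 to 0.43), although after scaling its interval was -0.67 to -0.06.

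The TGF-beta pathway, the main profibrotic signal of liver, had 16 of 17 tested members higher than sham (median 1.02), 14 of them after scaling. The ligand Tgfb1 was at 2.43, 2.49 and 4.09 FPKM in sham and at 10.7, 18.4 and 17.9 in BDL+LIG, with BDL between them at 6.52, 8.15 and 7.67. Its difference from sham was 2.04 ± 0.22 (adjusted p = 5.89e-05) and its difference from BDL 0.95 ± 0.22 (adjusted p = 0.0269). The receptor Tgfbr2 (1.92 ± 0.14) and the targets Tgfbi (2.81 ± 0.17) and Ccn2 (2.39 ± 0.18), a matricellular growth factor, rose too. Of the 17 members 9 were called higher and 0 lower in BDL+LIG than in BDL by limma (10.7% and 1.88% of all tested genes).

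Of 14 tested markers of stellate cells and myofibroblasts 11 rose (9 after scaling). In bulk liver, more cells of a type and more RNA per cell cannot be told apart, which holds for every marker list below. The summed level of all 17 markers was 23.8 to 45.5 FPKM in sham and 86.7 to 151 in BDL+LIG. Cygb, the stellate cell globin (1.74 ± 0.21), Pdgfrb, the receptor of a stellate cell mitogen (1.254 ± 0.15), Mgp (2.65 ± 0.39) and the intermediate filament gene Vim (1.75 ± 0.26) had the smallest p. Acta2, smooth muscle actin and the usual marker of myofibroblasts, was at 3.99, 1.57 and 0.495 FPKM in sham and at 3.19, 4.36 and 2.00 in BDL+LIG. Sham library 1 lay within the BDL+LIG range, the groups overlapped, and the difference of 0.60 ± 0.40 did not pass the test (adjusted p = 0.227). Without sham library 1 the difference was 1.05 and passed. Tpm2, a tropomyosin of contractile cells, was at the sham level (0.08 ± 0.21, interval -0.38 to 0.55), though its interval left the band without sham library 2 or 3 or BDL+LIG library 1 or 3.

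Markers of bile duct epithelium rose for 15 of 17 tested members on either scale (median 2.08 as deposited), and the summed level of the 22 markers was 82.3 to 106 FPKM in sham and 542 to 796 in BDL+LIG. Spp1 and Tm4sf4 carried much of the BDL+LIG sum, with means of 314 and 215 FPKM against 15.4 for Krt19 and 9.19 for Krt7. The sum therefore says little of the lower markers. Spp1, the gene of osteopontin, was at 29.6, 15.2 and 19.8 FPKM in sham and at 168, 410.4 and 362 in BDL+LIG (3.75 ± 0.33, adjusted p = 1.85e-05). Krt19, the keratin that marks bile ducts, was at 2.45, 1.52 and 1.03 FPKM in sham and at 17.7, 17.8 and 10.7 in BDL+LIG (2.62 ± 0.27, adjusted p = 4.12e-05). Neither gene's groups overlapped. Tm4sf4 (2.26 ± 0.11), the tight junction gene Cldn4 (2.88 ± 0.16), the annexin Anxa2 (3.27 ± 0.22), Epcam (2.28 ± 0.17) and Krt7 (2.69 ± 0.21) also rose. Against BDL, 2 of the 17 members were called higher and 0 lower, near the 10.7% and 1.88% of all tested genes.

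Nearly all tested macrophage markers stood above sham. Of 24 tested markers of monocytes and macrophages 23 rose (20 after scaling, median 2.1 as deposited), and of 14 Kupffer cell markers 12 rose on either scale. The Kupffer list holds Cdh5, which the list of vascular endothelium shares. Trem2, a lipid-sensing receptor of scar-associated macrophages, was at 0.144, 0.222 and 0.225 FPKM in sham and at 8.87, 10.4 and 14.6 in BDL+LIG (3.34 ± 0.16, adjusted p = 1.04e-06). The gap between the groups was many times the spread within them. Cx3cr1, the fractalkine receptor (2.37 ± 0.16), the lysozyme gene Lyz2 (3.15 ± 0.25), Cd68 (2.37 ± 0.28) and the Kupffer cell receptor Vsig4 (2.29 ± 0.23) rose. Adgre1, the F4/80 antigen, had a difference of 2.39 ± 0.28 and was also higher than in BDL, by 1.41 ± 0.28 (adjusted p = 0.0164). The Kupffer list held 2 genes at the sham level, Nr1h3, the oxysterol receptor LXR-alpha (0.21 ± 0.11, and -0.25 after scaling), and the complement gene C6 (0.06 ± 0.22), which hepatocytes also express and whose interval left the band without any 1 sham or BDL+LIG library.

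All 4 tested neutrophil markers rose on both scales, among 13 listed. Retnlg, at a mean of 0.156 FPKM in sham, could be tested only through its BDL+LIG libraries, so its direction was set by the filter. S100a8 and S100a9, the subunits of calprotectin, had differences of 2.42 ± 0.31 and 1.44 ± 0.29, and S100a9 was lower in BDL+LIG than in BDL (-1.11 ± 0.29, adjusted p = 0.038). The summed level of the 13 markers was 4.39 to 7.61 FPKM in sham, 44.3 to 49.5 in BDL and 16.9 to 42.9 in BDL+LIG. Lymphocyte markers were mostly too low to test. Of 15 T and NK cell markers only Nkg7 was tested (1.17 ± 0.34, adjusted p = 0.0141), and its call was lost after scaling (0.91) and without sham library 2 (1.04). Of 10 B and plasma cell markers 2 were tested and Jchain, the joining chain of secreted antibodies, rose (1.42 ± 0.23).

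Of 21 tested chemokine, cytokine and adhesion genes 17 rose (16 after scaling, median 1.59 as deposited). Ccl2 was at 0.478, 1.16 and 1.600 FPKM in sham and at 24.9, 24.2 and 38.0 in BDL+LIG (adjusted p = 2.2e-06). The adhesion molecule Vcam1 was at 1.88, 1.57 and 1.81 FPKM in sham and at 15.2, 18.0 and 30.2 in BDL+LIG (2.95 ± 0.21, adjusted p = 6.18e-06). The ranges of both genes were wide apart. Icam1 (2.05 ± 0.12), Cxcl16 (2.61 ± 0.18) and Il1b, interleukin-1 beta (0.89 ± 0.19), rose, the last losing its call under quantile normalization. Tnf, tumor necrosis factor, was at 0.200, 0.154 and 0.381 FPKM in sham and at 0.408, 1.23 and 0.778 in BDL+LIG. Il6, interleukin-6, was at 0, 0 and 0 FPKM in sham and at 0, 0.0222 and 0.0884 in BDL+LIG. Both were too low to be tested. Cxcl12, a chemokine of resting stroma, was at the sham level (-0.06 ± 0.18, interval -0.46 to 0.33) but was called lower after scaling (-0.53), and without sham library 2 or 3 its interval left the band.

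As deposited, most tested markers of sinusoidal endothelium were higher in BDL+LIG than in either other group. Of 13 tested markers of sinusoidal endothelium 12 rose over sham (9 after scaling, median 0.99). In BDL+LIG against BDL 10 were called higher and 0 lower, where 10.7% and 1.88% of all tested genes were. Stab2, a scavenger receptor for hyaluronan, was at 2.44, 1.23 and 1.71 FPKM in sham, 1.56, 2.19 and 2.05 after ligation alone and 4.68, 5.07 and 3.98 in BDL+LIG. Only the BDL+LIG libraries lay above the sham range (1.02 ± 0.18, adjusted p = 0.000894). Cdh5, the junction protein VE-cadherin, is in the vascular endothelium and Kupffer cell lists, not in the sinusoidal list. Cdh5 was at 2.27, 1.93 and 2.87 FPKM in sham, 5.07, 5.54 and 4.54 after ligation alone and 9.20, 14.2 and 12.4 in BDL+LIG (1.94 ± 0.17, adjusted p = 1.97e-05). The 3 groups did not overlap and stood in that order. Plpp1 (1.71 ± 0.16), the Fc receptor Fcgr2b (1.28 ± 0.13) and the mannose receptor Mrc1 (1.55 ± 0.24), which macrophages share, rose as well. Pecam1, from the vascular list, also rose (1.13 ± 0.14). Of 13 tested vascular endothelial genes 10 rose and 1 fell (Ly6a), with 7 and 1 after scaling. Ly6a was no longer called without sham library 2 or 3, BDL library 2 or BDL+LIG library 1 or 2.

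Genes of the acute phase of inflammation stood above sham in part. The list holds proteins that hepatocytes secrete and others, such as the co-receptor Cd14 and the metalloreductase Steap4. Of 32 tested members 20 rose, 1 fell (Nnmt), 1 was at the sham level and 10 were undetermined. After scaling 12 rose and 2 fell. The serum amyloid, orosomucoid, haptoglobin and hepcidin genes described here were chosen after their values were seen. Saa2, a serum amyloid A, was at 88.4, 271 and 303 FPKM in sham, 4716, 6187 and 7101 after ligation alone and 2109.7, 444 and 1768 in BDL+LIG. Its BDL+LIG libraries lay above sham and below BDL, with library 2 the lowest. The difference was 2.61 ± 0.59 from sham (adjusted p = 0.00407) and -2.32 ± 0.59 from BDL (adjusted p = 0.0329). Saa1 was at 171, 609 and 603 FPKM in sham and 2589, 671 and 1969.8 in BDL+LIG, and its call (1.92 ± 0.55, adjusted p = 0.014) was lost after scaling (1.44) and without BDL+LIG library 1 (1.53) or 3 (1.73).

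Orm1, the lipocalin orosomucoid-1, was at 1387, 2461 and 1797 FPKM in sham, 7246, 7711 and 8317 after ligation alone and 3429, 2225 and 3177 in BDL+LIG. BDL+LIG library 2 lay within the sham range, and the difference of 0.66 ± 0.25 (adjusted p = 0.0434) was not called after scaling (0.18), nor without any 1 BDL library, sham library 1 (0.46) or 3 (0.65), or BDL+LIG library 1 (0.54) or 3 (0.59). From BDL it differed by -1.42 ± 0.25 (adjusted p = 0.0128). Hp, haptoglobin, was at 3585, 5750.1 and 3735 FPKM in sham and 12061, 7021 and 9510.5 in BDL+LIG (1.13 ± 0.27, adjusted p = 0.0055), again with no call after scaling (0.65). Reads of Saa1 and Saa2, and of Orm1 and Orm2, can be shared, so the split within each pair is uncertain. Steap4, a metalloreductase (2.77 ± 0.22), and Il1rn, the interleukin-1 receptor antagonist (2.29 ± 0.21), rose on both scales. Hamp, the iron hormone hepcidin, was undetermined (0.42 ± 0.21, adjusted p = 0.121, and -0.05 after scaling), and the complement gene C4b was at the sham level (-0.06 ± 0.16).

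Other plasma proteins moved in both directions, with a balance that turned with the scale. Of 27 tested secreted proteins 5 rose (Trf, Apoa4, Apob, Hrg and Igfbp1), 9 fell, 3 were at the sham level and 10 were undetermined, and after scaling 2 rose and 14 fell. On the TPM scale 9 rose and 7 fell, after quantile normalization 9 rose and 6 fell, and with the length trend removed 8 rose and 5 fell. Without sham library 2 or 3 or BDL+LIG library 1 the number that rose was 3. Ttr, the thyroxine carrier transthyretin, was at 4799, 5802 and 7312 FPKM in sham and at 1554, 2157 and 1915 in BDL+LIG (-1.66 ± 0.21, adjusted p = 0.000135). Serpina6, the corticosteroid carrier, and Apoa2, an apolipoprotein of high-density lipoprotein, fell (-2.09 ± 0.33 and -1.64 ± 0.23). Alb, albumin, was at 33912, 31555 and 20853 FPKM in sham and 22032, 30171 and 27979 in BDL+LIG. Its groups overlapped, and its difference was undetermined (-0.09 ± 0.29, adjusted p = 0.813). The contact factor F12 (0.02 ± 0.11), heparin cofactor Serpind1 (0.11 ± 0.14) and Ambp, the precursor of alpha-1-microglobulin (0.15 ± 0.16), were at the sham level. The interval of Ambp left the band without sham library 2 or BDL+LIG library 3.

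Of 30 complement and coagulation genes 12 were at the sham level as deposited, against 24.3% of all genes, while 7 rose and 8 fell. After scaling 4 were within the band and 16 were lower. Serpinc1, antithrombin, was at 1170.3, 1044 and 1001 FPKM in sham and at 1158, 1043 and 1011 in BDL+LIG. The libraries were interleaved and the difference was 0.00 ± 0.14 (interval -0.30 to 0.30). F2, prothrombin, was at 719, 697 and 578 FPKM in sham and 792, 626 and 660.0 in BDL+LIG, again interleaved (0.06 ± 0.14, interval -0.26 to 0.38). After scaling the intervals were -0.86 to -0.09 for Serpinc1 and -0.81 to -0.02 for F2, both reaching below the band. C1ra (0.07 ± 0.10) and C2 (0.04 ± 0.12), early complement proteases, were at the sham level too. The terminal complement genes C8b (-1.16 ± 0.12) and C9 (-1.08 ± 0.14) and Proc, the anticoagulant protein C (-0.64 ± 0.10), fell, whereas Pros1, its cofactor protein S (1.29 ± 0.21), rose.

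Genes of bile acid synthesis split. Of 17 tested members 4 rose (Cyp7a1, Akr1d1, Acox2 and Cyp39a1), 7 fell and 6 were at the sham level, 1 of which was also called, and after scaling 2 rose and 10 fell. Cyp8b1, the sterol 12-alpha-hydroxylase that makes cholic acid, was at 130.1, 104 and 144 FPKM in sham, 22.5, 23 and 25.3 after ligation alone and 42.7, 39.2 and 37.5 in BDL+LIG. The BDL+LIG libraries lay between the other groups without overlap, -1.63 ± 0.13 from sham (adjusted p = 1.14e-05) and 0.73 ± 0.13 from BDL (adjusted p = 0.0136). Cyp7b1, the oxysterol hydroxylase of the alternative pathway, was at 132, 165 and 91.1 FPKM in sham and at 11.9, 14 and 11.3 in BDL+LIG (-3.25 ± 0.19, adjusted p = 2.11e-06). Cyp7a1, which sets the rate of the classical pathway, was at 31.7, 7.17 and 9.80 FPKM in sham and at 24.1, 48.9 and 37.4 in BDL+LIG. Sham library 1 lay inside the BDL+LIG range. The difference of 1.35 ± 0.44 was called (adjusted p = 0.0244), but not after scaling (0.91), nor without BDL+LIG library 2 (1.12) or 3 (1.31) or sham library 2 (0.95) or 3 (1.15). Akr1d1, a steroid 5-beta-reductase, rose (1.48 ± 0.18). The sterol 27-hydroxylase Cyp27a1 (0.01 ± 0.19), the conjugating enzyme Baat (0.12 ± 0.12) and the peroxisomal side-chain enzyme Hsd17b4 (-0.11 ± 0.10) were at the sham level as deposited, and stood at -0.46, -0.35 and -0.59 after scaling. Without BDL+LIG library 2 the interval of Cyp27a1 left the band.

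Carriers that take up bile acids and organic anions from blood were mostly below sham, with 6 of 10 tested members lower, 1 higher (Slco1a4) and 1 at the sham level. After scaling 8 were lower. Slc10a1, the sodium-dependent bile acid carrier NTCP, was at 253, 271 and 226 FPKM in sham and 148, 129.7 and 131 in BDL+LIG (-0.87 ± 0.11, adjusted p = 0.000179). Slco1a1, an organic anion transporter, was at 64.4, 65.0 and 52.9 FPKM in sham and 0.239, 2.00 and 0.153 in BDL+LIG (-5.24 ± 0.30, adjusted p = 2.12e-06). All sham libraries of both genes lay above all BDL+LIG libraries, by a far wider gap for Slco1a1. Slco2b1 was at the sham level as deposited and stayed within the band after scaling (0.13 ± 0.13 and -0.33), though it was called lower there.

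On the export side 7 of 13 tested carriers rose, 1 fell (Abcg8) and 1 was at the sham level (Abcg2), with 6 higher and 5 lower after scaling. Over all tested genes 43.8% rose and 9.07% fell. Abcg8, a canalicular sterol exporter, lost its call without BDL+LIG library 1 or 2. Slc51b, which encodes the beta chain of the basolateral organic solute exporter, was at 1.52, 0.926 and 0 FPKM in sham, 28.0, 27.9 and 32.7 after ligation alone and 9.83, 18.2 and 11 in BDL+LIG (3.00 ± 0.31, adjusted p = 4.75e-05). Its BDL+LIG libraries were above all sham and below all BDL libraries (difference from BDL -1.17 ± 0.31, adjusted p = 0.0401). Abcb1a, a multidrug exporter (2.16 ± 0.16), Abcb4, the phospholipid flippase of the canaliculus (1.34 ± 0.13), and Abcc3, a basolateral exporter (1.31 ± 0.16), rose. Abcb11, the canalicular bile salt export pump, was at 68.9, 39.6 and 38.4 FPKM in sham and 69.3, 72.9 and 69.3 in BDL+LIG. Sham library 1 almost reached the BDL+LIG libraries, and the call (0.57 ± 0.19, adjusted p = 0.0285) was lost after scaling (0.10), in the 6 libraries alone, and without sham library 2 (0.45) or 3 (0.42) or any 1 BDL+LIG library (0.54 to 0.58).

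Among 25 nuclear receptors and hepatocyte transcription factors 9 rose, 2 fell, 6 were at the sham level and 8 were undetermined, where 43.8% of all tested genes rose, 9.07% fell and 24.3% were at the sham level. After scaling 2 rose, 8 fell and 9 were within the band, and without sham library 2 or BDL+LIG library 1 the number that rose was 5. Hnf4a, the central factor of hepatocyte identity, was at 129, 103 and 119 FPKM in sham and 161, 131 and 141 in BDL+LIG. The BDL+LIG libraries were slightly above the sham libraries, the difference was 0.30 ± 0.12 (interval 0.03 to 0.57, adjusted p = 0.0601), and after scaling it was -0.17 (interval -0.49 to 0.15), inside the band on both scales. Its deposited interval left the band without any 1 BDL library, without BDL+LIG library 2 or 3, and without sham library 1 or 3. The pioneer factor Foxa1 was also inside on both scales (0.03 ± 0.11 and -0.32), and Foxa2 (-0.01 ± 0.16) as deposited. Nr1h4, the bile acid receptor FXR, fell (-0.57 ± 0.11, a call lost on the TPM scale), as did Cebpa (-1.03 ± 0.19). Ahr, the receptor of aromatic compounds, rose (1.66 ± 0.21), as did Nr1i2, the xenobiotic receptor PXR (0.86 ± 0.13).

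Enzymes of drug and steroid metabolism were more often below than above sham as deposited. Of 33 tested cytochrome P450 genes of families 1 to 3 15 fell (9.07% of all tested genes did), 7 rose, 3 were at the sham level (Cyp2a12, Cyp2d26 and Cyp2g1) and 8 were undetermined, and after scaling 20 fell. Of 36 conjugating enzymes 15 fell, 10 rose and 6 were at the sham level, and after scaling 21 fell, whereas on the TPM scale 10 fell and 12 rose. Without BDL+LIG library 2, 6 conjugating enzymes rose. Cyp2f2 (-2.06 ± 0.16), Cyp2d40 (-2.01 ± 0.18), the glucuronosyltransferases Ugt2b1 (-3.32 ± 0.21) and Ugt2b38 (-2.89 ± 0.21) and the sulfotransferase Sult5a1 (-3.41 ± 0.26) fell most clearly by p, and Cyp2c39 rose (1.47 ± 0.16). Cyp2a12 (-0.15 ± 0.14), Cyp2d26 (-0.18 ± 0.17), Ugt2b35 (0.02 ± 0.16), Gstt2 (0.16 ± 0.11) and Gsta3 (-0.08 ± 0.15) were at the sham level as deposited. The interval of Cyp2a12 left the band without BDL+LIG library 1, and that of Cyp2d26 without any 1 BDL library, sham library 2 or 3, or BDL+LIG library 1 or 3. Members of these families are close in sequence, so their separation rests on the counting that the authors used.

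Pericentral hepatocyte genes were at the sham level for 6 of 16 tested members, while 5 fell (Cyp2e1, Cyp1a2, Cyp2c29, Tbx3 and Lect2) and 1 rose (Slc1a4), with 10 lower after scaling. Cyp2c29 (-1.21 ± 0.18), the alcohol-inducible Cyp2e1 (-1.09 ± 0.26) and the caffeine-metabolising Cyp1a2 (-1.48 ± 0.37) fell. Cyp2c29 was higher in BDL+LIG than in BDL, by 0.95 ± 0.18 (adjusted p = 0.0143).

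Among the 59 lists, chosen with earlier results known, transcripts more abundant in male than in female mouse liver had the lowest median difference. Of 38 tested members 35 fell, 1 rose (Scara5), 1 was at the sham level (C6) and 1 was undetermined (median -4.55 as deposited and -4.91 after scaling, 36 lower). Serpina1e, a paralog of alpha-1-antitrypsin, fell (-5.75 ± 0.27). Cyp4a12a, a fatty acid hydroxylase, was at 188, 104 and 237 FPKM in sham, 14.53, 12.6 and 12.1 after ligation alone and 4.63, 5.08 and 3.76 in BDL+LIG. Cyp4a12a was lower in BDL+LIG than in either other group (-4.94 ± 0.25 from sham, adjusted p = 1.11e-06, and -1.36 ± 0.25 from BDL, adjusted p = 0.0137). Of the 38 members 7 were called lower and 0 higher in BDL+LIG than in BDL (1.88% and 10.7% of all tested genes). Of 9 tested female-biased genes 5 rose (Cyp2b10, Fmo2, Acot3 and Slc22a26 among them) and 2 fell on both scales, such as Slc22a26 (2.34 ± 0.21) and Fmo2 (2.28 ± 0.34) upward and Cyp2c40 (-2.63 ± 0.24) and Cyp2c69 (-1.73 ± 0.21) downward. As background, the male programme is set by pulses of growth hormone. Of 14 tested genes of that axis 5 rose (Jak2, Stat5b, Cish, Socs3 and Igfbp1) and 3 fell (Ghr, Igf1 and Igfals). Over all tested genes 43.8% rose and 9.07% fell. After scaling 3 of the 14 rose and 4 fell, and on the TPM scale 7 rose and 3 fell. A part of this axis in the fall of the male-biased genes was not tested. Ghr, the growth hormone receptor (-0.67 ± 0.12), and Igfals, the partner of circulating IGF-1 (-0.90 ± 0.16), fell. Stat5b, the signal transducer of the receptor, rose as deposited (0.66 ± 0.12) but was not called after scaling (0.26).

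Fatty acid oxidation was mixed, with 8 of 44 tested members higher, 13 lower, 10 at the sham level and 13 undetermined, and 27 lower after scaling. The fatty acid translocase Cd36 (2.78 ± 0.20), the kinase Pdk4, which spares pyruvate (2.41 ± 0.25), the thioesterase Acot2 (1.47 ± 0.17) and the PPAR-alpha target Cyp4a14 (1.91 ± 0.27) rose. Hadhb (0.03 ± 0.12), Acads (-0.04 ± 0.12) and Hadh (-0.01 ± 0.15), enzymes of the mitochondrial spiral, were at the sham level as deposited and at -0.43, -0.51 and -0.48 after scaling. Against BDL, 9 of the 44 members were called higher and 0 lower, where 10.7% and 1.88% of all tested genes were. Pdk4 (1.13 ± 0.25) and Acot2 (0.97 ± 0.17) were among the 9.

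Genes of cholesterol synthesis and uptake rose for 19 of 25 tested members (14 after scaling, median 1.07 as deposited), and 2 were at the sham level. Cyp51, the lanosterol demethylase, was at 40.6, 30.9 and 31.2 FPKM in sham, 63.1, 83 and 96.3 after ligation alone and 103, 80.1 and 98.7 in BDL+LIG. All BDL+LIG libraries lay above all sham libraries (1.43 ± 0.18, adjusted p = 0.000124). Pmvk (1.6 ± 0.15) and the sterol sensor partner Insig2 (1.07 ± 0.12) rose, and Tm7sf2 (0.04 ± 0.15) and Ebp (-0.25 ± 0.10), 2 enzymes of the sterol ring, were at the sham level as deposited. Of 21 lipogenic genes 7 rose and 1 fell (Mlxipl), whereas after scaling 5 rose and 6 fell. Of the same genes 5 fell without BDL+LIG library 2 and 2 without sham library 1. The desaturase Scd2 (2.51 ± 0.15), Acss2 (1.16 ± 0.13), Acly (1.39 ± 0.24) and Acaca (1.08 ± 0.25), which supply acetyl and malonyl units, rose on both scales, and Dgat2, a triglyceride synthase, was at the sham level (0.03 ± 0.10) as deposited.

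Of 40 genes of the urea cycle and amino acid breakdown 10 rose, 12 fell and 7 were at the sham level, after scaling 3 rose and 18 fell, and on the TPM scale 15 rose and 7 fell. Otc, ornithine transcarbamylase (-1.19 ± 0.19), Agxt, which detoxifies glyoxylate (-1.53 ± 0.16), and Cbs (-1.0 ± 0.17) fell, the ornithine carrier Slc25a15 rose (1.08 ± 0.11), and Nags, the maker of the urea cycle's activator, was at the sham level (0.01 ± 0.10). Of 24 genes of glucose and glycogen 10 rose, 2 fell (Gys2 and Ugp2) and 6 were within the band, 1 of them also called, which is near the shares over all genes (43.8% rose and 9.07% fell). After scaling 5 rose and 5 fell. The glycogen synthase Gys2 fell (-1.41 ± 0.13). The glucose carrier Slc2a2 (1.05 ± 0.11) and the non-hepatocyte type enzymes Pkm (1.91 ± 0.26) and Hk1 (0.91 ± 0.13) rose.

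Genes driven by the oxidative stress factor NRF2, listed with its inhibitor Keap1, rose for 19 of 28 tested members. Of these 28, 1 was lower and 3 were at the sham level (Taldo1, Prdx1 and Keap1). After scaling 12 rose and 5 fell. Hmox1, heme oxygenase-1, was at 17.2, 18.0 and 22.3 FPKM in sham and 69.6, 76.7 and 104 in BDL+LIG (2.05 ± 0.16, adjusted p = 8.64e-06). Its groups were well apart, as were those of Pgd, an NADPH-producing enzyme (1.62 ± 0.12), and the quinone reductase Nqo1 (1.48 ± 0.18). Gstp1, a glutathione transferase that is male-biased in mouse liver, fell (-1.90 ± 0.17). Keap1, the inhibitor of NRF2, was at the sham level (-0.04 ± 0.11, and called lower at -0.48 after scaling). The metallothionein gene Mt1, which encodes a zinc-binding protein, was at 122, 256 and 105 FPKM in sham and at 978, 225 and 766 in BDL+LIG. Its paralog Mt2 was at 191, 532 and 161 FPKM in sham and at 1793, 463 and 1492 in BDL+LIG. Their libraries overlapped between the groups. Both were called (1.89 ± 0.49 and 2.08 ± 0.52, adjusted p = 0.00848 and 0.00717), Mt1 not after scaling (1.41). Iron handling genes rose for 14 of 20 members on the deposited scale and for 12 after scaling, among them the ferroxidase Cp (1.68 ± 0.16).

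Targets of p53 rose for 15 of 21 tested members (13 after scaling) and 1 fell (Gadd45a). Btg2, an antiproliferative gene (3.16 ± 0.13), Sesn1 (1.39 ± 0.16) and Phlda3 (2.1 ± 0.24) rose together with Cdkn1a, and Perp was at the sham level (0.09 ± 0.11). Btg2 and Sesn1 were also higher than in BDL, by 0.69 ± 0.13 and 0.94 ± 0.16 (adjusted p = 0.0145 and 0.0123). Of 18 tested cell cycle genes, among 32 listed, 11 rose (9 after scaling). The cyclin Ccnd1 (2.25 ± 0.29) and the replication helicase subunits Mcm4 (1.61 ± 0.31) and Mcm6 (1.97 ± 0.41) rose. The mitotic genes Top2a and Mki67 were chosen after their values were seen. Top2a was at 0.263, 0.210 and 0.355 FPKM in sham and at 0.686, 4.34 and 1.32 in BDL+LIG. Mki67 was at 0.290, 0.160 and 0.117 FPKM in sham and at 0.275, 2.91 and 0.472 in BDL+LIG. Both were too low to be tested, and BDL+LIG library 2 stood above the other 5 libraries. Immediate early genes rose for 14 of 18 tested members, including Atf3 (2.33 ± 0.16), Jun (2.18 ± 0.17) and Ier3 (2.71 ± 0.18), and 12 stayed called after scaling.

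Interferon-stimulated genes were more often below than above sham. Of 30 tested members 15 fell, 1 rose (Gbp2), 5 were at the sham level (Ifit2, Irf1, Oasl2, Rsad2 and Gbp7) and 9 were undetermined (median -0.56), and after scaling 19 fell. Ifi44 (-1.05 ± 0.16), the GTPase Iigp1 (-0.78 ± 0.13), Ifi27 (-1.28 ± 0.22) and Ifit1 (-1.27 ± 0.24) fell. Rsad2, the antiviral protein viperin (0.01 ± 0.17 and -0.25), and Gbp7 (0.07 ± 0.14 and -0.25) were inside the band on both scales. All 6 tested MHC class II genes rose, 3 of them after scaling, with Cd74, the invariant chain, at 37.2, 41.8 and 71.4 FPKM in sham and 95.6, 168 and 375 in BDL+LIG (1.90 ± 0.43, adjusted p = 0.00415). BDL+LIG library 3 carried the highest value of the 6. Of 10 MHC class I genes 3 rose (H2-Q4, Tap2 and Tapbp), 1 fell (B2m) and 3 were at the sham level (H2-K1, H2-T23 and Tap1), while after scaling 0 rose and 3 fell. H2-K1 encodes a classical class I chain (-0.07 ± 0.20). Only 1 class I gene rose without sham library 2 or BDL+LIG library 2, and none fell without sham library 3 or BDL+LIG library 1.

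Of 16 tested genes of the circadian clock 5 rose (Per1, Cry1, Nfil3 and Bhlhe40 among them), 3 fell (Nr1d1, Dbp and Ciart) and 3 were at the sham level (Nr1d2, Tef and Usp2), where 43.8% of all tested genes rose and 9.07% fell. After scaling, and equally after quantile normalization, 2 rose and 5 fell. The output factor Dbp was at 81.6, 72.9 and 116 FPKM in sham and 15.5, 16.8 and 17.8 in BDL+LIG (-2.34 ± 0.22, adjusted p = 2.68e-05). Nr1d1, the repressor REV-ERB-alpha, was at 53.3, 19.6 and 42.2 FPKM in sham and 5.84, 8.65 and 6.03 in BDL+LIG (-2.23 ± 0.31, adjusted p = 0.000222). In both genes all sham libraries were above all BDL+LIG libraries. Cry1, a repressor of the clock, rose (1.07 ± 0.21). The sources used here do not state the hour of sampling. Without sham library 1, 8 of the 16 genes rose.

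Cytoskeletal, annexin and S100 genes rose for 21 of 27 tested members and fell for 2 (Tuba4a and S100a13), with 15 and 2 after scaling. Anxa5 (2.34 ± 0.15), Actg1, cytoplasmic actin (2.77 ± 0.20), and the hepatocyte and duct keratins Krt8 (2.33 ± 0.14) and Krt18 (1.71 ± 0.14) rose. Both keratins were lower than in BDL (-0.56 ± 0.14 and -0.79 ± 0.14, adjusted p = 0.0309 and 0.0128). Targets of the growth coactivators YAP and TAZ, listed with the genes of both coactivators, rose for 13 of 15 members (12 after scaling). Ajuba (1.74 ± 0.13) and the receptor kinase Axl (2.32 ± 0.18) were among them. Wwtr1, which encodes TAZ, rose (1.32 ± 0.12), whereas Yap1 was inside the band on both scales (0.16 ± 0.12 and -0.28). Lysosomal and autophagy genes rose for 24 of 36 members, with 10 inside the band, 1 of them also called, and after scaling 12 rose and 6 fell. The acid lipase Lipa (1.54 ± 0.14) and Psap (1.31 ± 0.13) rose, and Ctsz was at the sham level as deposited (0.01 ± 0.11, called lower at -0.47 after scaling).

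**Figure D3:**
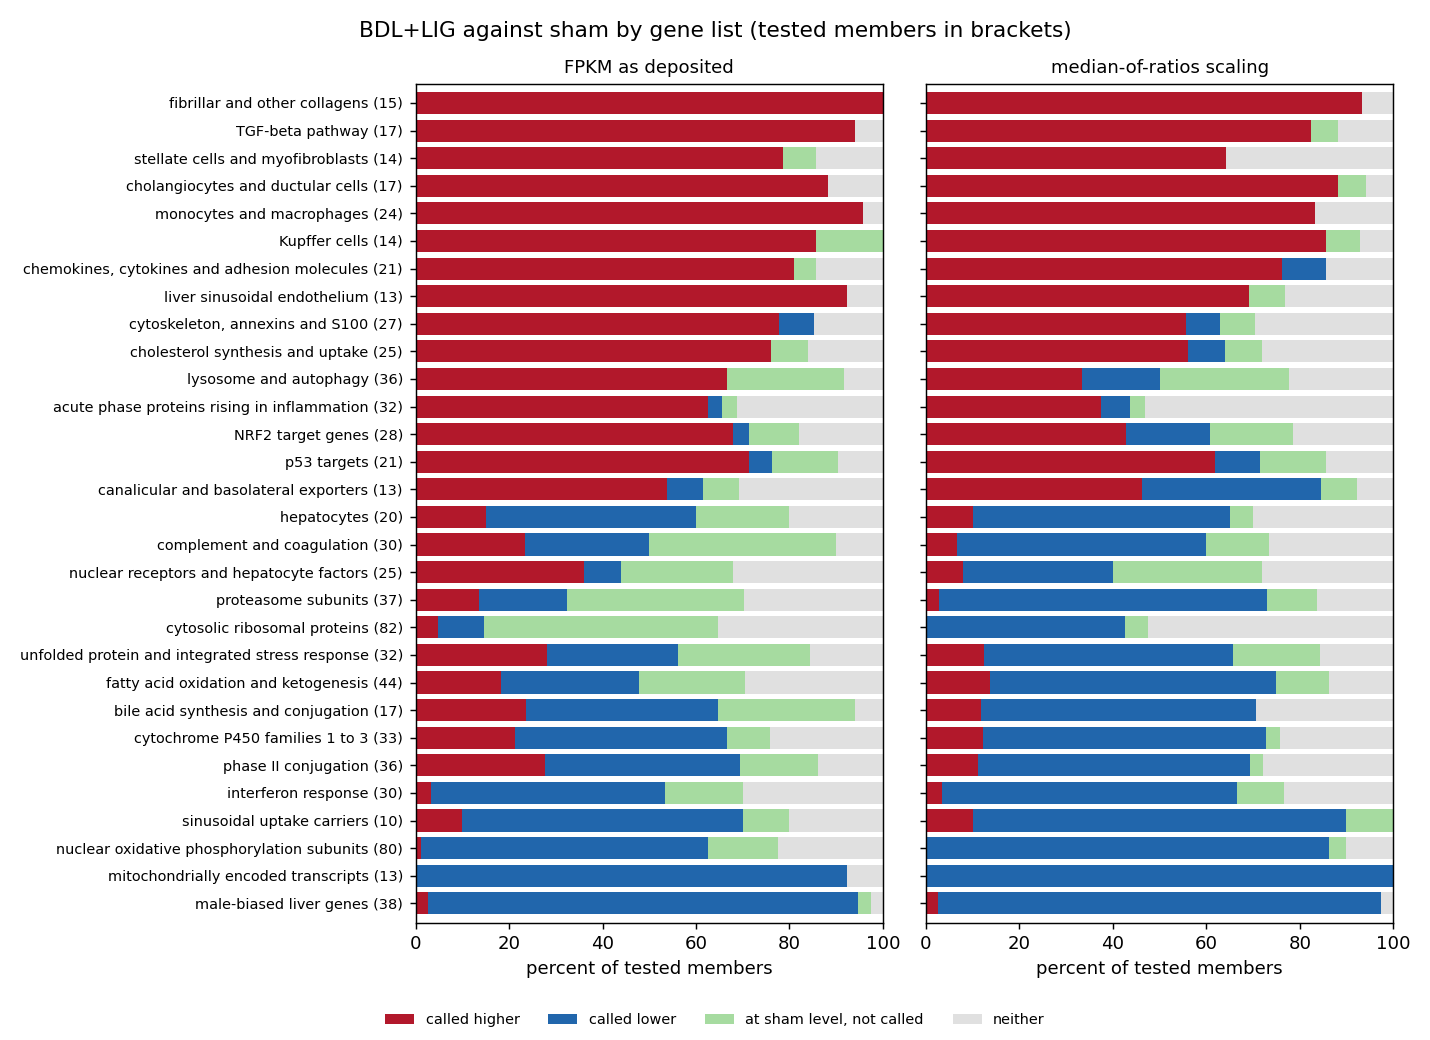
Share of the tested members (x axis, percent) of 30 gene lists that were called higher (red) or lower (blue) than sham, at the sham level and not called (green), or neither (grey), as deposited (left) and after median-of-ratios scaling (right). Collagen, duct and macrophage lists are nearly all red and male-biased and mitochondrially encoded genes nearly all blue on both sides. Proteasome and complement lists turn from green towards blue, and the cytosolic ribosomal list turns from green towards grey and blue.

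Mitochondrial transcripts lay below sham. Of 13 mitochondrially encoded genes 12 fell as deposited and 13 after scaling (median -1.36 as deposited). After quantile normalization 9 fell (median -0.98), and with the trend in gene length removed 8 fell (median -0.87). ATP6, a subunit of ATP synthase, was at 90.8, 58.5 and 82.4 FPKM in sham, 73.2, 44.4 and 94.9 after ligation alone and 22.8, 28.4 and 15 in BDL+LIG. Only BDL+LIG lay wholly below sham (-1.78 ± 0.30, adjusted p = 0.000696), and it differed from BDL by -1.62 ± 0.30 (adjusted p = 0.0136). COX3 (-1.95 ± 0.34) and ND2 (-1.36 ± 0.28) fell as well. ATP6 was the only 1 of the 13 called lower in BDL+LIG than in BDL, and 0 were called higher. In BDL 3 of the 13 were called lower than sham, with a median difference of -0.61. Mean levels in sham, BDL and BDL+LIG were 121, 58.7 and 31.6 FPKM for COX3 and 15630, 8277 and 5894 for ND2. Of 80 nuclear genes of oxidative phosphorylation 49 fell, 1 rose (Atp5b) and 13 were within the band (median -0.62), and after scaling 69 fell. Without sham library 2 the number that fell was 32. Uqcrb, a subunit of complex III, was at 258, 321 and 323 FPKM in sham, 219.8, 232 and 224 after ligation alone and 119.5, 126 and 106 in BDL+LIG, and its groups did not overlap (-1.35 ± 0.13, adjusted p = 2.68e-05). Ndufa5 (-1.26 ± 0.13) and Cox7b (-0.95 ± 0.12) fell.

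Transcript length moved with these results. In 4 equal classes of the tested genes from short to long (2484 genes each), the median difference from sham was -0.01, 0.29, 0.46 and 0.49. The class of the shortest genes held 71 of the 80 nuclear oxidative phosphorylation genes, 73 of 82 cytosolic ribosomal protein genes, 49 of 78 mitochondrial ribosomal protein genes and 29 of 37 proteasome genes. With the trend in length removed from each library, 13 of the 80 oxidative phosphorylation genes fell, 5 rose and 55 were within the band. The part of length in the fall of this group was not tested further.

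The protein synthesis machinery lay near sham as deposited and in part below it after scaling. Of 82 cytosolic ribosomal protein genes 42 were within the band (24.3% of all tested genes were), 4 rose (Rpl3, Rpl10a, Rpl41 and Rplp0) and 8 fell. After scaling 4 were within the band, 35 fell and 43 were undetermined, and with the length trend removed 45 rose and 1 fell. Without sham library 1, 35 fell and 6 rose, whereas 4 fell without sham library 2 and 5 without BDL+LIG library 1 or 3. Rps6 was at 218, 198 and 169 FPKM in sham and 199, 191 and 202 in BDL+LIG (0.02 ± 0.12). Rpl21 fell (-0.64 ± 0.14), and Rpl3 and Rplp0 rose as deposited (0.85 ± 0.14 and 0.67 ± 0.15) but not after scaling (0.38 and 0.20). Of 78 mitochondrial ribosomal protein genes 29 were within the band, 26 fell and 3 rose (Mrpl3, Mrps12 and Mrps23), with 63 lower after scaling and 46 lower without sham library 1. With the length trend removed 17 rose and 15 fell. Of the 78, 1 rose without sham library 3 or BDL+LIG library 2 or 3. Of 37 proteasome genes 15 were within the band, 7 fell and 5 rose (Psmd3, Psmd5, Psmd8, Psmd10 and Psmd13), with 26 lower after scaling, and Psmd8 rose on both scales (1.28 ± 0.12). With the length trend removed 9 proteasome genes rose and 0 fell. Without any 1 BDL or BDL+LIG library other than BDL+LIG library 2, or without sham library 2, 3 proteasome genes fell, and without sham library 1, 11 fell. Of the same genes 2 rose without sham library 3 or BDL+LIG library 2 and 3 without BDL+LIG library 1. Spliceosome genes were within the band for 11 of 42 members and vesicle coat and sorting genes for 15 of 48, with 13 and 25 after scaling. Over all tested genes 24.3% were within the band as deposited and 32.7% after scaling, and the spliceosome counts are near these shares. Of the 2 lists 13 and 23 members rose and 5 and 2 fell, where 43.8% of all tested genes rose and 9.07% fell. After scaling 3 and 6 rose and 13 and 10 fell.

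By mean level the first 12 genes at the sham level included Ambp, Gpx1, Adh1, Serpinc1, Plg, H2-K1, Rps18, Rpl10, Prdx1, F2 and Serping1. Adh1, the main hepatic alcohol dehydrogenase, was at 1461, 1701 and 1357 FPKM in sham and 1472, 1545 and 1248 in BDL+LIG (-0.08 ± 0.16, interval -0.43 to 0.27). The asialoglycoprotein receptor genes Asgr1 (-0.13 ± 0.15) and Asgr2 (-0.01 ± 0.13), hepatocyte markers, also lay there. Among the 11 abundant genes named first, the differences ran from -0.18 for Plg to 0.15 for Ambp as deposited and from -0.66 to -0.32 after scaling. Adh1, Serpinc1, Rpl10 and F2 kept their intervals within the band without any 1 library, and the other 7 did not. Of all 102 genes at the sham level that the naming rule took, 67 stayed within the band without any 1 library.

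**Figure D4:**
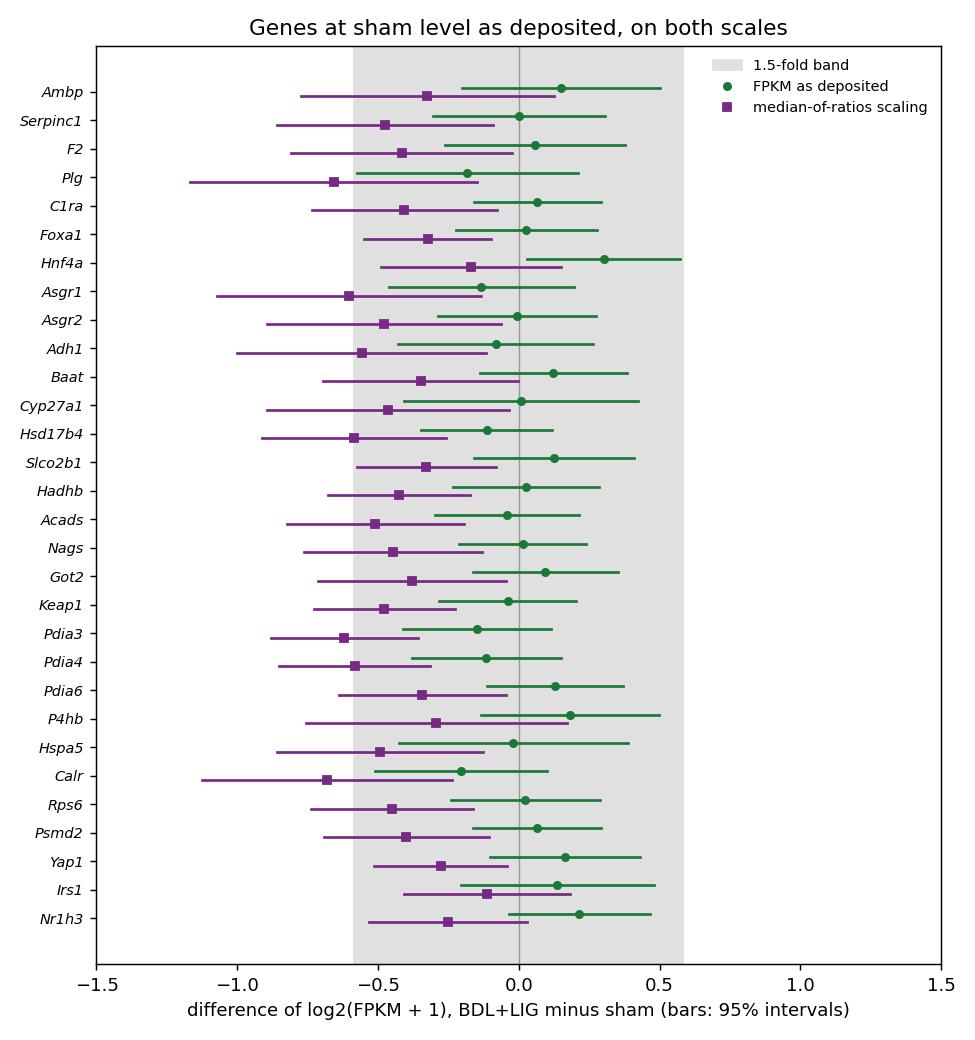
Difference of log2(FPKM + 1) between BDL+LIG and sham with 95% intervals (x axis) for 30 genes (y axis) at the sham level as deposited, on the deposited scale (green circles) and after median-of-ratios scaling (purple squares). The green intervals lie within the grey 1.5-fold band, whereas the purple ones are shifted downward and most reach below it, with Hnf4a, Foxa1, Slco2b1, Yap1, Irs1 and Nr1h3 inside on both scales.

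The endoplasmic reticulum chaperones and isomerases Hspa5, Calr, P4hb, Pdia3, Pdia4 and Pdia6 were at the sham level in BDL+LIG as deposited and were called higher than sham in BDL. Of 32 tested genes of protein folding and translation stress 9 rose, 9 fell, 9 were at the sham level and 5 were undetermined against sham, with 4 higher and 17 lower after scaling. Against BDL, 11 of the 32 were called lower and 3 higher (1.88% and 10.7% of all genes). Hspa5, the chaperone BiP, was at 206, 183 and 131 FPKM in sham, 240.3, 271 and 299 after ligation alone and 143, 173 and 192 in BDL+LIG. Hspa5, and Calr below, were chosen after their values were seen. The BDL libraries of Hspa5 were all above the other 6. Its difference from sham was -0.02 ± 0.18 in BDL+LIG (interval -0.43 to 0.39) and 0.66 ± 0.18 in BDL (adjusted p = 0.0211), and the difference between BDL+LIG and BDL was -0.68 ± 0.18 (adjusted p = 0.0404).

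The disulfide isomerase Pdia3 was at 159, 130.2 and 134 FPKM in sham, 186, 199.9 and 214 after ligation alone and 119, 131 and 131 in BDL+LIG, and BDL+LIG differed from BDL by -0.65 ± 0.12 (adjusted p = 0.0136). P4hb was at 394, 502 and 522 FPKM in sham, 751, 752 and 761 after ligation alone and 579, 489 and 532 in BDL+LIG (-0.50 ± 0.14 from BDL, adjusted p = 0.0455). In each of these genes BDL was highest and the other groups overlapped. The interval of P4hb left the band without sham library 2 or BDL+LIG library 2. Pdia4 (-0.11 ± 0.12 from sham), Pdia6 (0.13 ± 0.11) and Calr, calreticulin (-0.21 ± 0.14), were also at the sham level and lower than BDL (-0.59 ± 0.12, -0.39 ± 0.11 and -0.81 ± 0.14). The interval of Calr left the band without sham library 2 or BDL+LIG library 1 or 3. After scaling, Pdia3 (-0.62), Pdia4 (-0.58), Hspa5 (-0.49) and Calr (-0.68) were called lower than sham, and P4hb (-0.29) and Pdia6 (-0.34) were not called. Hyou1, another chaperone, fell below sham (-0.72 ± 0.13). In the same list Atf3, Eif2ak3 (1.26 ± 0.19), the stress sensor PERK, and Sesn2 (1.44 ± 0.22) rose.

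Outside the lists, Fgl1 and Rnase4 had the same order, and both were chosen after their values were seen. Fgl1, a fibrinogen-like hepatokine, was at 543, 748 and 464 FPKM in sham, 1177, 1276 and 1368 after ligation alone and 661, 431 and 568 in BDL+LIG. Rnase4, a secreted ribonuclease, was at 622, 726 and 589 FPKM in sham, 1043, 1116 and 1139.6 after ligation alone and 694, 465 and 769 in BDL+LIG. The BDL libraries of both genes were above all others. Against sham BDL+LIG differed by -0.07 ± 0.21 and -0.03 ± 0.19, and against BDL by -1.22 ± 0.21 and -0.80 ± 0.19 (adjusted p = 0.0124 and 0.0272). After scaling they stood at -0.55 and -0.51 from sham, not called. The interval of Fgl1 left the band without sham library 1 or 3 or BDL+LIG library 1 or 3, and that of Rnase4 without BDL+LIG library 1 or 3.

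**Figure D5:**
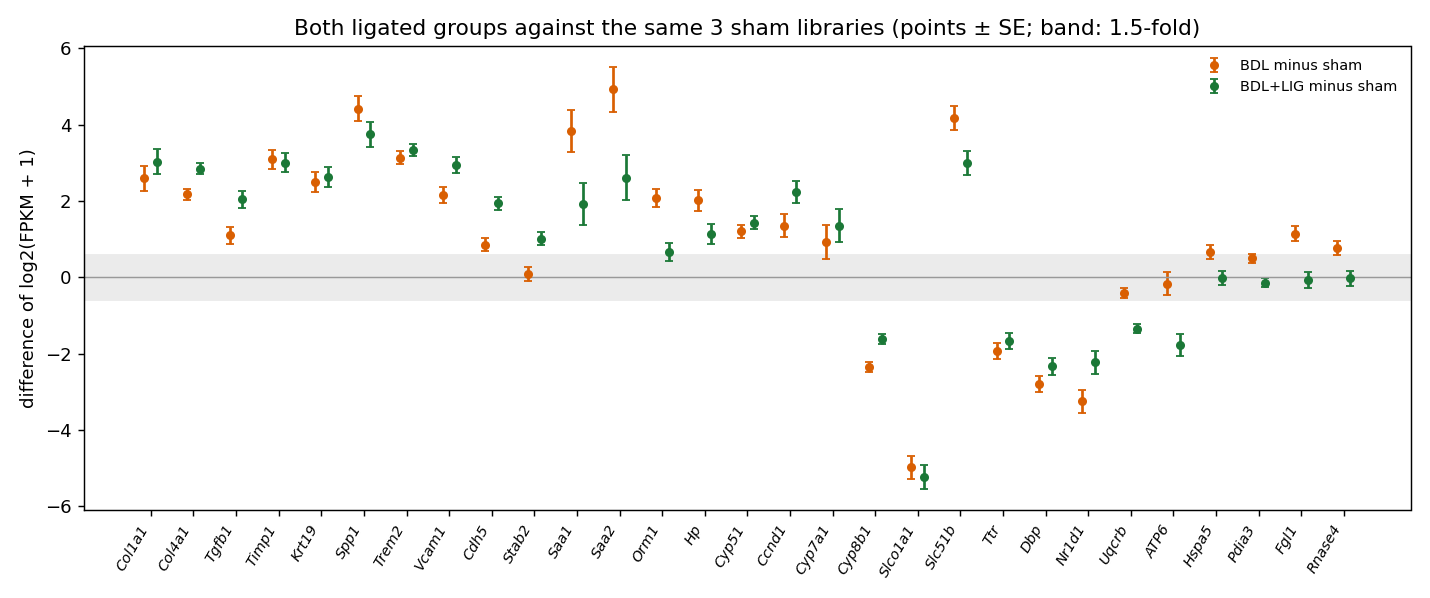
Difference of log2(FPKM + 1) from sham ± SE (y axis) for 29 named genes (x axis), for BDL (orange) and BDL+LIG (green), which share the same 3 sham libraries. Most genes lie on the same side of sham in both groups, the endothelial genes Cdh5 and Stab2 and the mitochondrial genes Uqcrb and ATP6 are farther from sham in BDL+LIG, and Hspa5, Fgl1 and Rnase4 lie in the grey 1.5-fold band only in BDL+LIG.

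The 2 ligated groups share the sham libraries, and their values are given side by side for some of the genes farthest from sham. BDL minus sham was 7.21 ± 0.51 for Lcn2, 4.54 ± 0.37 for Sprr1a, 4.35 ± 0.17 for Cdkn1a and -7.40 ± 0.16 for Hsd3b5. Over all tested genes 29.5% were called in BDL against sham (22.6% higher and 6.88% lower) and 12.5% in BDL+LIG against BDL. Mup3 (-2.14 ± 0.29 against BDL, adjusted p = 0.00725), Mup14 (-2.35 ± 0.42), Mup17 (-2.49 ± 0.49), Mup11 (-1.96 ± 0.55) and Mup15 (-1.58 ± 0.44) were lower in BDL+LIG than in BDL, and Nid1 was higher (0.67 ± 0.18, adjusted p = 0.0381). For the other 17 of the 23 genes named among the largest rises and falls the difference between the ligated groups did not pass the test, which does not show that they were alike.

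Markers of hepatocytes and of tissues that could be carried over were checked in the same libraries. The 20 hepatocyte markers summed to 89377 to 99492 FPKM in sham and 78924 to 80920 in BDL+LIG, and 3 rose (Tat, Cps1 and Trf), 9 fell and 4 were at the sham level (Hnf4a, Asgr1, Asgr2 and F2), with 2 higher and 11 lower after scaling. Red blood cell markers summed to 191 to 309 FPKM in sham and 173 to 374 in BDL+LIG, and of 5 tested only Alas2 was called (-2.53 ± 0.22). Of 18 exocrine pancreas markers 10 were in the table, with sums of 9.47 to 25.2 FPKM in sham and 5.62 to 7.78 in BDL+LIG, and Cela1 fell (-1.33 ± 0.33). Adipose markers summed to 1204 to 1699 FPKM in sham and 30.1 to 205 in BDL+LIG, mostly Car3, a male-biased liver gene as well, which was at 1685, 1194 and 1515 FPKM in sham and 20.8, 189.9 and 36.4 in BDL+LIG (-4.75 ± 0.60). All 3 tested mesothelial markers rose, but they are the keratins Krt8 and Krt18 and the protease inhibitor Slpi (3.30 ± 0.30), which bile duct cells express too.

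At the thresholds themselves, Sap30 was just inside the 1.5-fold band (0.24 ± 0.16, interval -0.11 to 0.58) and Derl1 just outside it (0.29 ± 0.13, interval -0.01 to 0.59). Sap30 left the band without any 1 library other than BDL library 3. Papola was just inside the adjusted p of 0.05 (0.47 ± 0.18) and Las1l just outside it (0.43 ± 0.17).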

How the data were processed

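RNA-seq of mouse liver was analysed from 1 table of FPKM values that the authors deposited, with 9 libraries in 3 groups of 3. RNA was taken with TRIzol and made into libraries with a VAHTS Universal V6 kit, per the labels' protocols. Of tools and builds, fastp, HISAT2 2.1.0, DESeq2 and GRCm39 stand in the submitters' processing notes, with no role. No counting program or annotation is named in the sources used here. The members, gene lists and thresholds were chosen with earlier results of these data known.

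All 9 libraries entered 1 limma fit (limma 3.58.1 with trend, R 4.3.3, Python 3.11.15) on log2(FPKM + 1), without a block, over genes that reached 1 FPKM or more in 3 or more of the 6 compared libraries. The 3 groups shared 1 estimate of the spread, and the BDL libraries spread least (0.096 against 0.247 in sham and 0.146 in BDL+LIG). The p-values and intervals of BDL+LIG against sham may therefore be too small and too narrow. With the 6 libraries alone 4277 genes were called and 1697 were at the sham level, against 5250 and 2418. With the spread weighted by group these numbers were 4370 and 1728. Adjusted p-values are Benjamini-Hochberg over all 9939 genes. Each p in the report comes from this fit, since an exact permutation test of 3 against 3 libraries cannot go below 0.1. Named were the 12 largest rises and falls among called, non-overlapping genes with a mean of at least 5 FPKM in either group, up to 4 called and 3 sham-level members per list (59 lists), the 12 most abundant genes at the sham level, a fixed set of 22 liver genes and the genes at each threshold. Other named genes are marked as chosen after their values were seen. Some genes that the rule takes are not reported here.

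FPKM values are multiples of what 1 fragment is worth, and whole fragments were recovered within 0.02 for 19446 of 19449 genes (99.98%). Alternatives were other scalings, pseudocounts, filters, bands and spreads, voom on recovered fragments, removal of the trend in gene length, a replicate block, and leaving out each library. On simulated data with 9939 genes the fit called 75.2% of 113 genes changed by 1 and 95.4% of 87 changed by 2 on the log2 scale, and placed none of them at the sham level. It placed 69.1% of unchanged genes there. How far these shares hold for the deposited data, where 52.8% of genes were called and the groups differed in spread, was not tested. Replicate libraries differed by more than counting noise, so none was counted as a duplicate.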

Additional observations from a re-analysis of the deposited data

How the results depend on the processing

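Higher genes made up 82.8% of the called genes as deposited, 49.0% after median-of-ratios scaling, 50.3% after quantile normalization and 91.2% on the TPM scale. After median-of-ratios scaling 2336 genes rose and 2431 fell, and of the 102 named genes at the sham level 88 left the band. After quantile normalization 2266 rose, 2243 fell, 1078 changed by at least 1 and 3777 were at the sham level. On the TPM scale 531 fell, 2757 changed by at least 1 and 1322 were at the sham level. With a mean of at least 5 FPKM 2773 genes were called, 2065 rose, 899 changed by at least 1 and 1516 were at the sham level, among fewer genes tested. With no filter 11442 were at the sham level, among more genes tested. A pseudocount of 0.1 gave 2586 changed by at least 1 and 1555 at the sham level, and voom on recovered fragments 2582 and 1472. The 2-fold band held 6199 genes, and a band from 20% below to 25% above sham held 192.

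Without 1 library the called genes numbered 4437 to 6843, the rising 3622 to 5625, the falling 702 to 1218, those changed by at least 1 1539 to 2065 and those at the sham level 1715 to 2560. The extremes of the called genes came without sham library 2 and without sham library 1. Of 237 differences of genes taken by the naming rule 10 lost the call without some library, a count that leaves out genes chosen after their values were seen, such as Saa1, Orm1, Ly6a and Abcg8. Leaving out sham library 1 gave 2 fallen acute phase genes, 2 risen uptake carriers, 2 risen male-biased genes and 3 risen nuclear oxidative phosphorylation genes in place of 1 each, and 1 fallen cholesterol gene in place of 0. Leaving out sham library 2 gave 2 fallen NRF2 targets, and leaving out BDL+LIG library 1 gave 2 risen pericentral genes, each in place of 1.

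Reversed signs were those of Alb (0.26 after quantile normalization, 0.15 on the TPM scale, and -0.3 to 0.05 without 1 library), Hamp (-0.05 after median-of-ratios scaling), Derl1 (-0.18 after median-of-ratios scaling) and Rpl26 (0.17 with the length trend removed). The cause was not tested.

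Whether replicate numbers pair the libraries is not known. The deviations of same-numbered sham and BDL+LIG libraries from their group means correlated at 0.256, -0.06 and 0.286. Sham libraries 1 and 3 correlated best with the BDL+LIG library of the same number, and sham library 2 with BDL+LIG library 3 (0.141). With 3 libraries a group these values cannot decide on a pairing. With the replicate block 5031 genes were called, 4149 higher and 882 lower, 1686 changed by at least 1 and 2279 were at the sham level.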
